A study of Aspergillus nidulans and Aspergillus wentii with 48 samples.

Results

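Members of the cellular machinery that reduces disulphides and peroxides were followed in the mould Aspergillus wentii: a pair of thioredoxin genes, a peroxiredoxin gene and a glutathione peroxidase gene. They were taken by identifier from the study's table of oxidative stress genes, and they are 4 of the 12659 A. wentii genes counted. ASPWEDRAFT_139887 and ASPWEDRAFT_101045 were listed as orthologues of A. nidulans trxA (AN0170). ASPWEDRAFT_167024 was the best match to tpxB (AN3973) and was also listed for tpxA (AN10223), and ASPWEDRAFT_104530 was the orthologue of gpxA (AN2846). The genes were picked with their values in all 8 A. wentii groups known, so their levels and differences are given as a description. No p-value is attached to any one of them, and whether a value met the call rule is stated as part of that description. All 4 passed the filter on low counts.

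The strain ′c gfdB is A. wentii CBS141173 carrying 1 copy of the A. nidulans gfdB gene, which encodes a glycerol 3-phosphate dehydrogenase, under its own promoter and terminator together with a hygromycin resistance marker. Its reference is CBS141173, which has no gfdB. Both were grown for 65 h, moved to broth with 2 M sorbitol, with 1 M NaCl, with both solutes or with neither (untreated), and sampled after 0.5 h. The same 4 conditions were applied to 2 A. nidulans strains, ΔgfdB, which lacks gfdB, and its reference THS30, grown for 38 h and 36 h. Each of the resulting 16 groups held 3 biological replicates. The foreign gfdB is not among the A. wentii genes counted, so the ′c gfdB label could not be checked from the counts, and every difference between the A. wentii strains rests on this 1 mutant line.

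Thioredoxins are small proteins with a pair of reactive cysteines that reduce disulphide bonds in other proteins, and thioredoxin reductase returns them to the reduced form with electrons from NADPH. Peroxiredoxins break down hydrogen peroxide and organic peroxides with a reactive cysteine that thioredoxin commonly recharges. Glutathione peroxidases do a similar job, and many of the fungal enzymes of that family draw on thioredoxin rather than glutathione, as is known from the Gpx proteins of Saccharomyces cerevisiae. In A. nidulans, trxA is the thioredoxin gene known from deletion studies to be needed for normal growth and development. 

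The A. wentii libraries held 11758085 to 32274107 counted reads and the A. nidulans libraries 11438978 to 53348830. Replicates of 6 A. wentii groups correlated with mean r of 0.9799 to 0.9941 across genes, whereas CBS141173 with sorbitol reached 0.9493 (replicate 2 least alike) and ′c gfdB with NaCl 0.9363 (replicate 1 least alike). The group means of the 4 genes that hold these 2 libraries, and the counts of calls that moved most, are also given without them. In A. nidulans, the deleted gene gfdB (AN6792) had 0 to 2 reads in the 12 ΔgfdB libraries and 71 to 5194 in the 12 THS30 libraries. Levels below are RPKM (reads counted to a gene, divided by its length in kilobases and by the library's total count), the log2 differences come from edgeR fits with TMM scaling, and a gene was called when it passed a Benjamini-Hochberg adjusted p of 0.05 and differed more than 2-fold. In bulk mycelium, fewer hyphae of one kind and less RNA per hypha cannot be told apart.

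The smaller thioredoxin gene, ASPWEDRAFT_139887 (568 bases), was the weakest of the 4 at a mean of 26.2 RPKM, and it set the strains apart most widely under stress. In ′c gfdB it had 13.08, 13.03 and 15.28 RPKM with sorbitol, 13.90, 10.45 and 12.36 with NaCl, 13.97, 19.21 and 8.385 with NaCl + sorbitol, and 10.4, 8.505 and 5.323 in untreated cultures. In CBS141173 it had 48.2, 46.6 and 135.3 RPKM with sorbitol, 41.8, 30.6 and 34.3 with NaCl, 29.2, 56.3 and 33.4 with both, and 12.2, 10.7 and 6.44 in untreated cultures. Every stressed CBS141173 library thus lay above every other A. wentii library, while the untreated libraries of the 2 strains overlapped.

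The sorbitol mean in CBS141173 was 76.7 ± 50.7 RPKM (SD, n = 3), and its spread came from replicate 3, which was far above its 2 replicates. Ordered by group mean, CBS141173 with sorbitol, with both solutes and with NaCl came first, then ′c gfdB with both solutes, with sorbitol and with NaCl, and last the untreated CBS141173 and ′c gfdB cultures. Of the 7 pairs of neighbours in this order, 6 overlapped, and the gap fell between CBS141173 with NaCl and ′c gfdB with both solutes. The highest group mean was 9.5 times the lowest. Counts ran from 48 to 1685 per library, so the lowest values of this gene carry the most counting error of the 4. Without the 2 least alike libraries the mean was 11.4 RPKM in ′c gfdB with NaCl (n = 2). In CBS141173 with sorbitol it was then 91.7 RPKM (n = 2), and the strain difference with sorbitol still met the call rule. That check kept the high replicate 3, so it cannot show how far the sorbitol difference rests on that library. With each library of the compared groups left out in turn, the log2 difference ran from -2.515 to -1.615. It met the rule in all 6 of these fits, which does not test the difference, because the gene was chosen on these values.

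**Figure D1:**
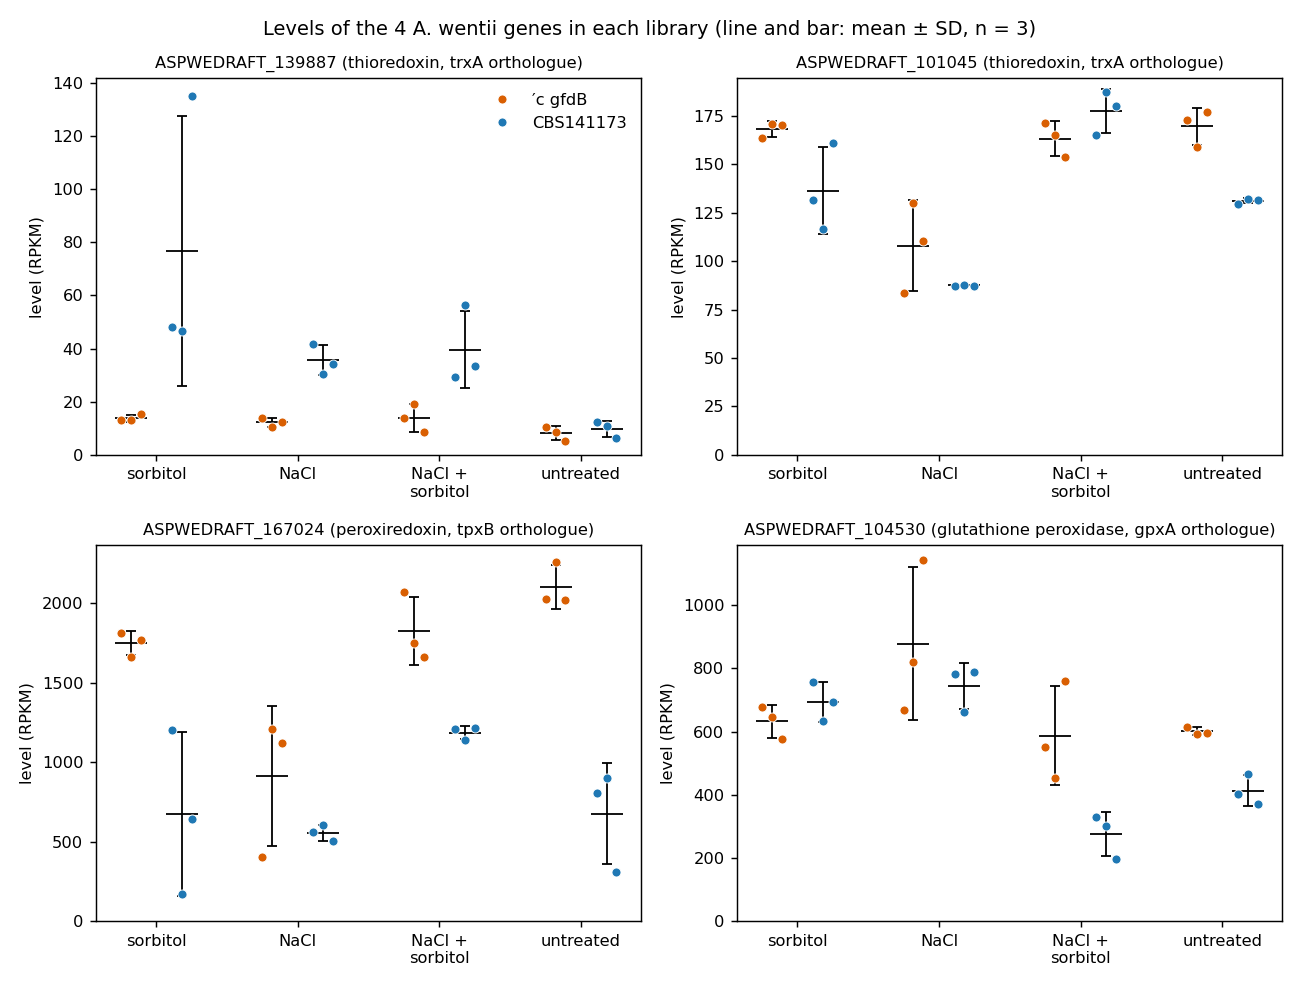
RPKM of ASPWEDRAFT_139887, ASPWEDRAFT_101045, ASPWEDRAFT_167024 and ASPWEDRAFT_104530 in each A. wentii library (points), with ′c gfdB left of CBS141173 in each condition; bars and lines are group means ± SD (n = 3). For ASPWEDRAFT_139887 every stressed CBS141173 library lies at 29.2 RPKM or more and every ′c gfdB library at 19.2 or less, and for ASPWEDRAFT_167024 single low libraries stand out at 174, 313 and 407 RPKM.

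On the fitted log2 scale, ASPWEDRAFT_139887 differed from untreated CBS141173 by 2.80 ± 0.39 (SE) with sorbitol, 1.81 ± 0.38 with NaCl and 2.03 ± 0.38 with both solutes. In ′c gfdB the same 3 differences were 0.77 ± 0.38, 0.57 ± 0.38 and 0.89 ± 0.38. Between ′c gfdB and CBS141173 it differed by -0.24 ± 0.38 in untreated cultures, -2.26 ± 0.38 with sorbitol, -1.48 ± 0.37 with NaCl and -1.38 ± 0.38 with both. In size, the strain difference passed 2-fold with each stress and not in untreated cultures. The stress response in ′c gfdB minus that in CBS141173 was -2.03 ± 0.53 for sorbitol, -1.24 ± 0.53 for NaCl and -1.14 ± 0.53 for both, and of these the sorbitol value alone met the call rule. Without CBS141173 sorbitol replicate 3 this sorbitol value was -1.38, without untreated ′c gfdB replicate 1 it was -1.82 and without ′c gfdB sorbitol replicate 2 it was -1.99, and none of these 3 met the rule. For NaCl + sorbitol, the strain difference no longer met it without CBS141173 replicate 2 (-1.03), ′c gfdB replicate 1 (-1.40) or ′c gfdB replicate 3 (-1.14).

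The larger thioredoxin gene, ASPWEDRAFT_101045 (996 bases, mean 142.8 RPKM), was far steadier. In ′c gfdB it had 163.6, 170.9 and 170.3 RPKM with sorbitol, 83.4, 130.1 and 110.6 with NaCl, 171.4, 165.03 and 153.8 with both, and 173.1, 159.0 and 177.2 in untreated cultures. In CBS141173 it had 131.4, 116.8 and 161.3 RPKM with sorbitol, 87.45, 87.87 and 87.06 with NaCl, 165.1, 187.6 and 180.4 with both, and 130, 132 and 132 in untreated cultures. In both strains the NaCl libraries lay below all the untreated ones, with log2 differences of -0.66 ± 0.17 in ′c gfdB and -0.63 ± 0.17 in CBS141173. With sorbitol the differences were close to 0 (-0.01 in ′c gfdB and -0.09 in CBS141173, the second turning to 0.06 without scaling), and with both solutes they were 0.06 in ′c gfdB and 0.45 in CBS141173. Without the 2 least alike libraries its mean was 120.4 RPKM in ′c gfdB with NaCl and 146.4 RPKM in CBS141173 with sorbitol.

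Between strains, ASPWEDRAFT_101045 differed by 0.42 ± 0.17 in untreated cultures, 0.50 ± 0.17 with sorbitol, 0.39 ± 0.17 with NaCl and 0.03 ± 0.17 with both, always less than 2-fold. Its group means, ordered downwards, were CBS141173 with both solutes, ′c gfdB untreated, with sorbitol and with both, CBS141173 with sorbitol and untreated, ′c gfdB with NaCl and CBS141173 with NaCl, and all 7 pairs of neighbours overlapped. The highest mean was 2.03 times the lowest. The pair of thioredoxin genes thus stood in a shifting ratio: ASPWEDRAFT_101045 had on average 12.3, 9.13, 13.1 and 22.9 times the RPKM of ASPWEDRAFT_139887 in ′c gfdB with sorbitol, with NaCl, with both and untreated, against 2.14, 2.5, 4.8 and 14.5 times in CBS141173.

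Neither gene led its family. The study's table lists 7 A. wentii genes under trxA, and ASPWEDRAFT_38834, which the table pairs with no A. nidulans identifier, held 59.9 to 81.3% of their summed RPKM in the ′c gfdB groups and 41.9 to 70.2% in the CBS141173 groups. ASPWEDRAFT_161658, named after its values were seen, came next with group means of 12.7 to 30.1% in ′c gfdB and 22.6 to 41.4% in CBS141173. In CBS141173 with both solutes ASPWEDRAFT_38834 and ASPWEDRAFT_161658 were level, at 41.9 and 41.4%, and their libraries overlapped. ASPWEDRAFT_101045 made up 2.41 to 8.66% of the sum over all 8 groups. ASPWEDRAFT_139887 made up 0.164 to 0.473% in ′c gfdB and 0.277 to 1.9% in CBS141173, so it was a small part of the family in each group, also where it was highest. ASPWEDRAFT_169564 and ASPWEDRAFT_293907 were near 0 (at most 12 and 24 reads per library) and were not tested. Whether reads matching several of these genes were counted, and whether strand was used, are not given in the sources used here, so any closely similar copies could share reads.

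**Figure D2:**
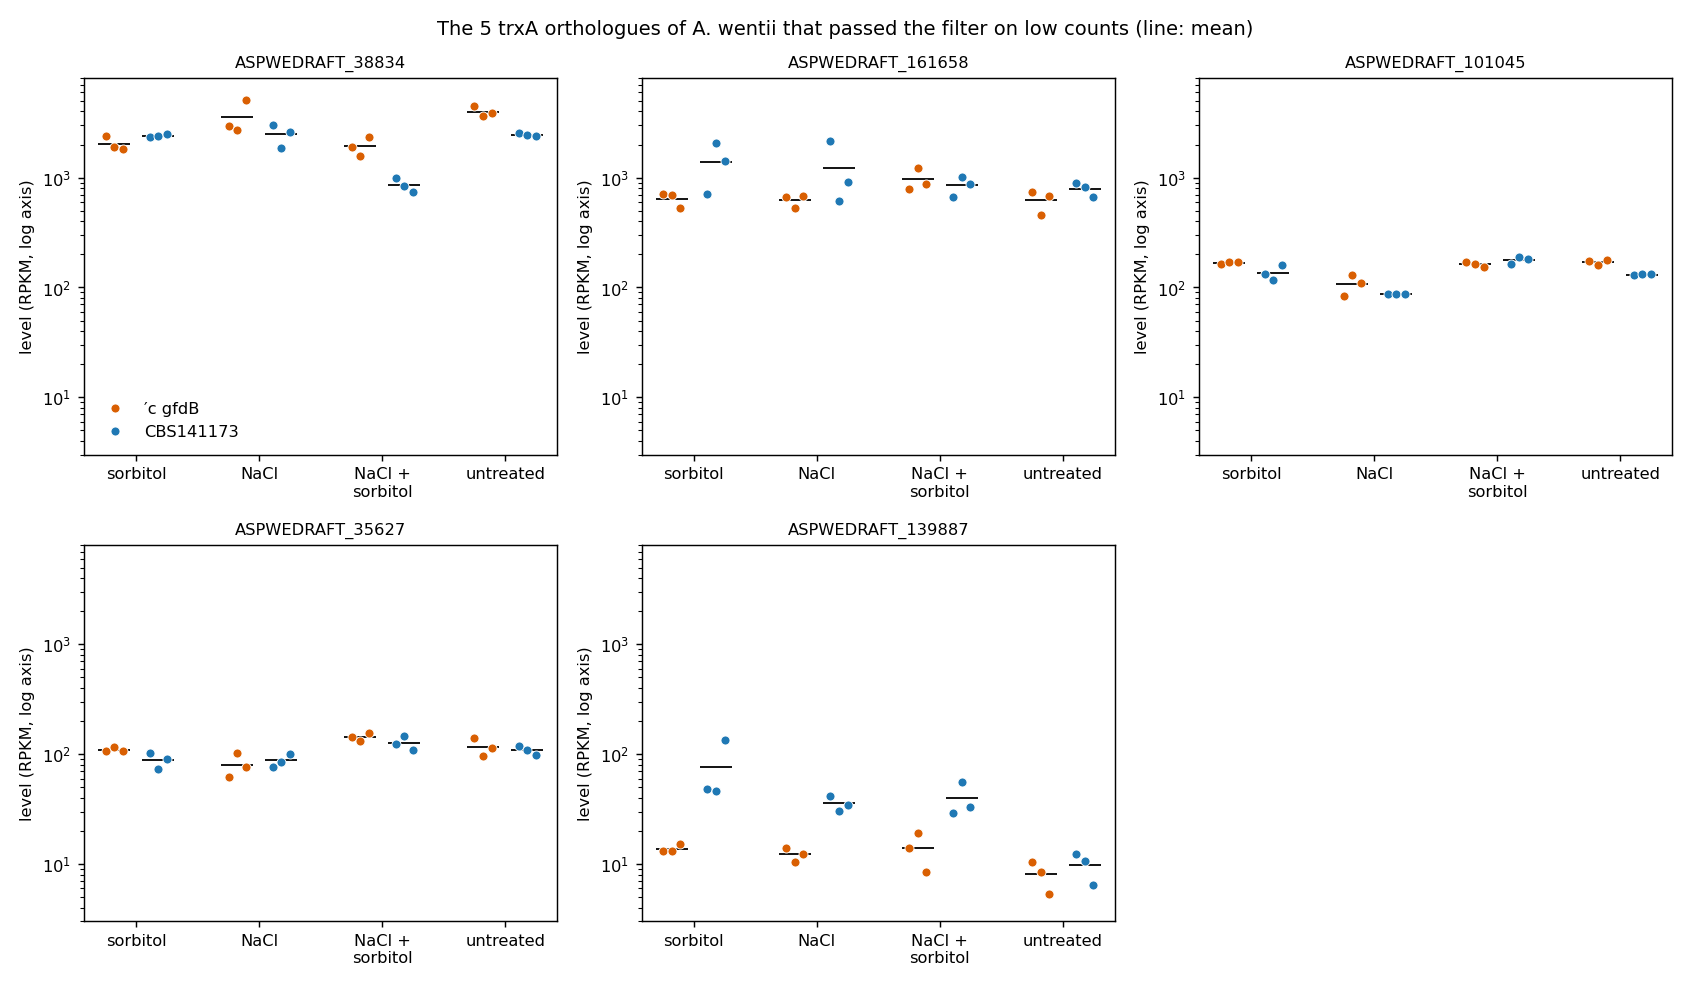
Mean RPKM (n = 3, log axis) of the trxA-listed A. wentii genes that passed the filter on low counts, in the 8 groups, ′c gfdB left of CBS141173. ASPWEDRAFT_38834 has the highest mean in each group with 858 to 3986 RPKM, but in CBS141173 with both solutes ASPWEDRAFT_161658 is level with it (858 and 854 RPKM). ASPWEDRAFT_139887 runs from 8.08 RPKM in untreated ′c gfdB to 76.7 RPKM in CBS141173 with sorbitol.

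The peroxiredoxin gene ASPWEDRAFT_167024 (675 bases) was the most abundant of the 4 at a mean of 1211 RPKM, above 98.8% of tested genes, and was higher in ′c gfdB. In ′c gfdB it had 1813, 1666 and 1773 RPKM with sorbitol, 407, 1211 and 1122 with NaCl, 2069, 1752 and 1664 with both, and 2026, 2262 and 2021 in untreated cultures. In CBS141173 it had 1207, 174 and 647 RPKM with sorbitol, 563, 605 and 503 with NaCl, 1208, 1138 and 1217 with both, and 810.5, 904.5 and 313.2 in untreated cultures. The libraries of the 2 strains did not overlap in untreated cultures, with sorbitol or with both solutes, and they overlapped with NaCl through ′c gfdB replicate 1.

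Group means were 1750 ± 76.1, 913 ± 440.5, 1828 ± 212.98 and 2103 ± 137.6 RPKM in ′c gfdB with sorbitol, NaCl, both and neither, against 676 ± 517, 557 ± 51.3, 1188 ± 43.0 and 676 ± 318 in CBS141173 (SD, n = 3). Among the 7 neighbours in the order of these means, the one gap lay between ′c gfdB with sorbitol and CBS141173 with both solutes. The strain differences were 1.68 ± 0.50 in untreated cultures, 1.55 ± 0.49 with sorbitol, 0.83 ± 0.49 with NaCl and 0.77 ± 0.48 with both. Stress differences were -0.26 ± 0.48, -1.17 ± 0.49 and -0.08 ± 0.48 in ′c gfdB with sorbitol, NaCl and both, and -0.14 ± 0.48, -0.32 ± 0.48 and 0.83 ± 0.48 in CBS141173. NaCl thus gave the one stress difference past 2-fold, in ′c gfdB, and it did not meet the call rule. It met that rule in 4 of 8 other settings (without scaling, without the filter, by DESeq2 and by limma, -1.14 to -1.35) and without ′c gfdB NaCl replicate 2 (-1.43). The sorbitol strain difference met it in all of these 8 but the fit of only the groups compared (1.60).

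A few libraries carried most of the spread of ASPWEDRAFT_167024: ′c gfdB NaCl replicate 1, CBS141173 sorbitol replicate 2 and untreated CBS141173 replicate 3. Each was also the library least like its replicates across all genes in its group, and each held the lowest level in its group of the tpxA orthologue ASPWEDRAFT_49041, at 19.3, 69.1 and 73.7 RPKM. What part those library differences have in the values of ASPWEDRAFT_167024 was not tested. Without CBS141173 sorbitol replicate 2 and ′c gfdB NaCl replicate 1, the mean was 1166 RPKM in ′c gfdB with NaCl and 927 RPKM in CBS141173 with sorbitol (n = 2 each), and the NaCl difference in ′c gfdB was -0.85. The strain difference was then 1.15 with sorbitol, and 1.15 with NaCl, which then met the call rule. The untreated strain difference was 1.33 without untreated CBS141173 replicate 3 and no longer met the rule, and the sorbitol one failed it without CBS141173 replicate 2 (1.10) or replicate 3 (1.49).

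ASPWEDRAFT_167024 outweighed its closest listed relative throughout. It held 93.2 to 95.7% of the summed RPKM of the pair with ASPWEDRAFT_49041 in the ′c gfdB groups and 81.0 to 88.0% in the CBS141173 groups. ASPWEDRAFT_49041 itself had log2 differences between the strains of -0.40 ± 0.43 in untreated cultures, 0.23 ± 0.43 with sorbitol, -0.71 ± 0.43 with NaCl and -0.23 ± 0.43 with both (edgeR adjusted p of 0.547, 0.702, 0.258 and 0.767). None of these passed the test.

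The glutathione peroxidase gene ASPWEDRAFT_104530 (564 bases) averaged 603.6 RPKM and moved in different ways under single and combined stress in CBS141173. In ′c gfdB it had 677.0, 645.5 and 576.1 RPKM with sorbitol, 669, 821 and 1143 with NaCl, 550, 452 and 760 with both, and 616, 593 and 596 in untreated cultures. In CBS141173 it had 759, 633 and 692 RPKM with sorbitol, 784, 662 and 790 with NaCl, 330, 300.9 and 197.9 with both, and 401.5, 467.3 and 371 in untreated cultures. In CBS141173 the single-stress libraries were all above the untreated ones and the combined-stress libraries all below them.

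The log2 differences of ASPWEDRAFT_104530 in CBS141173 were 0.60 ± 0.25 with sorbitol, 0.80 ± 0.25 with NaCl and -0.56 ± 0.25 with both, all under 2-fold. In ′c gfdB they were 0.08 ± 0.25, 0.55 ± 0.25 and 0.10 ± 0.25, and the sorbitol and combined-stress libraries overlapped the untreated ones. Between strains it differed by 0.58 ± 0.25 in untreated cultures, 0.06 ± 0.25 with sorbitol, 0.33 ± 0.25 with NaCl and 1.24 ± 0.25 with both. The combined-stress value was the one past 2-fold, and without ′c gfdB replicate 3 it was 0.98. In order of group means, ′c gfdB with NaCl was highest (877 ± 242 RPKM) and CBS141173 with both solutes lowest (276 ± 69.4 RPKM), and of the 7 neighbours only that lowest group stood clear of the next, untreated CBS141173. Without the 2 least alike libraries the mean was 981.7 RPKM in ′c gfdB with NaCl and 725.5 RPKM in CBS141173 with sorbitol.

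Side by side, the 4 genes did not share a pattern. In ′c gfdB against its untreated cultures, 0 of the 4 were called with sorbitol, with NaCl or with both, where 21.0, 27.7 and 19.4% of all 11094 tested genes were called; 0, 3 and 1 of them had an unadjusted p under 0.05, and DESeq2 called 0, 1 and 0. In CBS141173, 1 of the 4 was called with each treatment, ASPWEDRAFT_139887 every time, beside 25.8% of all genes with sorbitol, 34.9% with NaCl and 18.7% with both. Between the strains, 1 of the 4 was called in untreated cultures (15.4% of all genes), 2 with sorbitol (23.0%), 1 with NaCl (12.6%) and 2 with both (10.1%). For the difference of response between strains the counts were 1 with sorbitol (8.82%), 0 with NaCl (10.4%) and 0 with both (2.53%), with 1 gene at an unadjusted p under 0.05 in each and DESeq2 calling 1, 0 and 0. The genes were chosen on these contrasts, so nothing is read from these counts. Over the 10 comparisons within and between strains, ASPWEDRAFT_139887 was called in 6, ASPWEDRAFT_167024 in 2 and ASPWEDRAFT_104530 in 1, and ASPWEDRAFT_101045 in 0. Such totals were not counted for all tested genes, so nothing is read from these either. The stress comparisons of a strain share its untreated libraries, and the strain comparisons use the same libraries again, so these values are not independent.

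**Figure D3:**
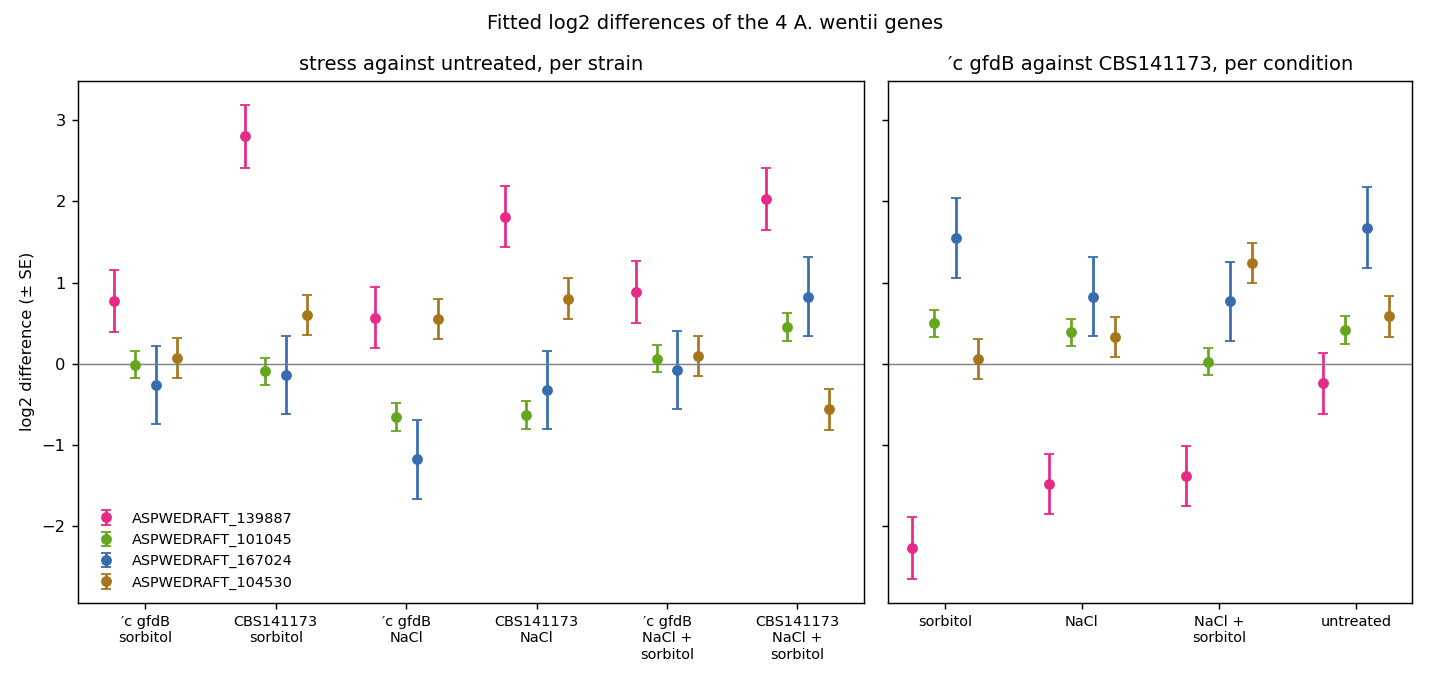
Fitted log2 differences ± SE (edgeR, TMM scaling) of the 4 genes, for each stress against untreated cultures in ′c gfdB and CBS141173 and for ′c gfdB against CBS141173 in each condition. ASPWEDRAFT_139887 spans 2.80 (sorbitol in CBS141173) to -2.26 (between strains with sorbitol), and ASPWEDRAFT_101045 stays within 2-fold throughout.

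The genes that serve the same chemistry were taken whole from the study's table of thioredoxin, peroxiredoxin, glutathione and glutaredoxin activities, and 24 of its 28 other A. wentii genes were tested. Between strains 0 were called higher and 2 lower in ′c gfdB in untreated cultures, 1 and 3 with sorbitol, 0 and 2 with NaCl, and 3 and 1 with both. Against untreated cultures, 2 were called higher and 0 lower with sorbitol in ′c gfdB, 1 and 0 with NaCl, and 3 and 0 with both, whereas in CBS141173 the counts were 2 and 1, 2 and 2, and 0 and 2. As shares, 8.33, 4.17 and 12.5% of these genes were called in ′c gfdB and 12.5, 16.7 and 8.33% in CBS141173 under the 3 stresses, each below the share of all genes. Between strains the shares were 8.33% in untreated cultures, 16.7% with sorbitol, 8.33% with NaCl and 16.7% with both, the last above the share of all genes. The median log2 difference of the list was 0.04, -0.03 and 0.41 in ′c gfdB (0.02, 0.08 and -0.01 over all genes) and -0.15, -0.03 and 0.13 in CBS141173 (-0.03, -0.06 and -0.01 over all genes). In all, 11 of the 24 were called at least once and 13 never. How often all tested genes were called over the 10 comparisons was not counted, so nothing is read from such totals.

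The thioredoxin reductase orthologue, trxR (ASPWEDRAFT_166503), which recharges thioredoxin, was the most often called, in 6 of the 10 comparisons. In ′c gfdB it had 2588, 2007 and 2103 RPKM with sorbitol, 2799, 2245 and 5556 with NaCl, 2063, 2152 and 2784 with both, and 842.5, 1206 and 1104 in untreated cultures. In CBS141173 it had 2295, 4686 and 3186 RPKM with sorbitol, 3668, 1220 and 2639 with NaCl, 661.9, 464.5 and 608.1 with both, and 847, 862 and 1711 in untreated cultures. In ′c gfdB the libraries of each stress thus lay above all untreated ones. In CBS141173 this held with sorbitol, while the NaCl libraries overlapped the untreated ones and those with both solutes lay below them.

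In ′c gfdB the log2 differences of trxR were 1.09 ± 0.40 with sorbitol, 1.77 ± 0.41 with NaCl and 1.28 ± 0.40 with both (edgeR adjusted p of 0.0373, 0.00157 and 0.0186). In CBS141173 they were 1.42 ± 0.40, 1.09 ± 0.40 and -0.96 (adjusted p of 0.00763 and 0.0274, the last value not passing the test). Under combined stress trxR was higher in ′c gfdB than in CBS141173 by 2.17 ± 0.41 (adjusted p 0.00138). Leaving out 1 library at a time kept the calls for sorbitol in CBS141173, NaCl in ′c gfdB and the combined-stress strain difference. The sorbitol call in ′c gfdB was lost whichever library was left out (log2 differences of 0.97 to 1.18). The call for both solutes in ′c gfdB was lost without untreated replicate 1 (1.11) or combined-stress replicate 3 (1.10), and the NaCl call in CBS141173 without NaCl replicate 1 (0.71) or 3 (1.05) or untreated replicate 1 (0.91) or 2 (0.93).

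**Figure D4:**
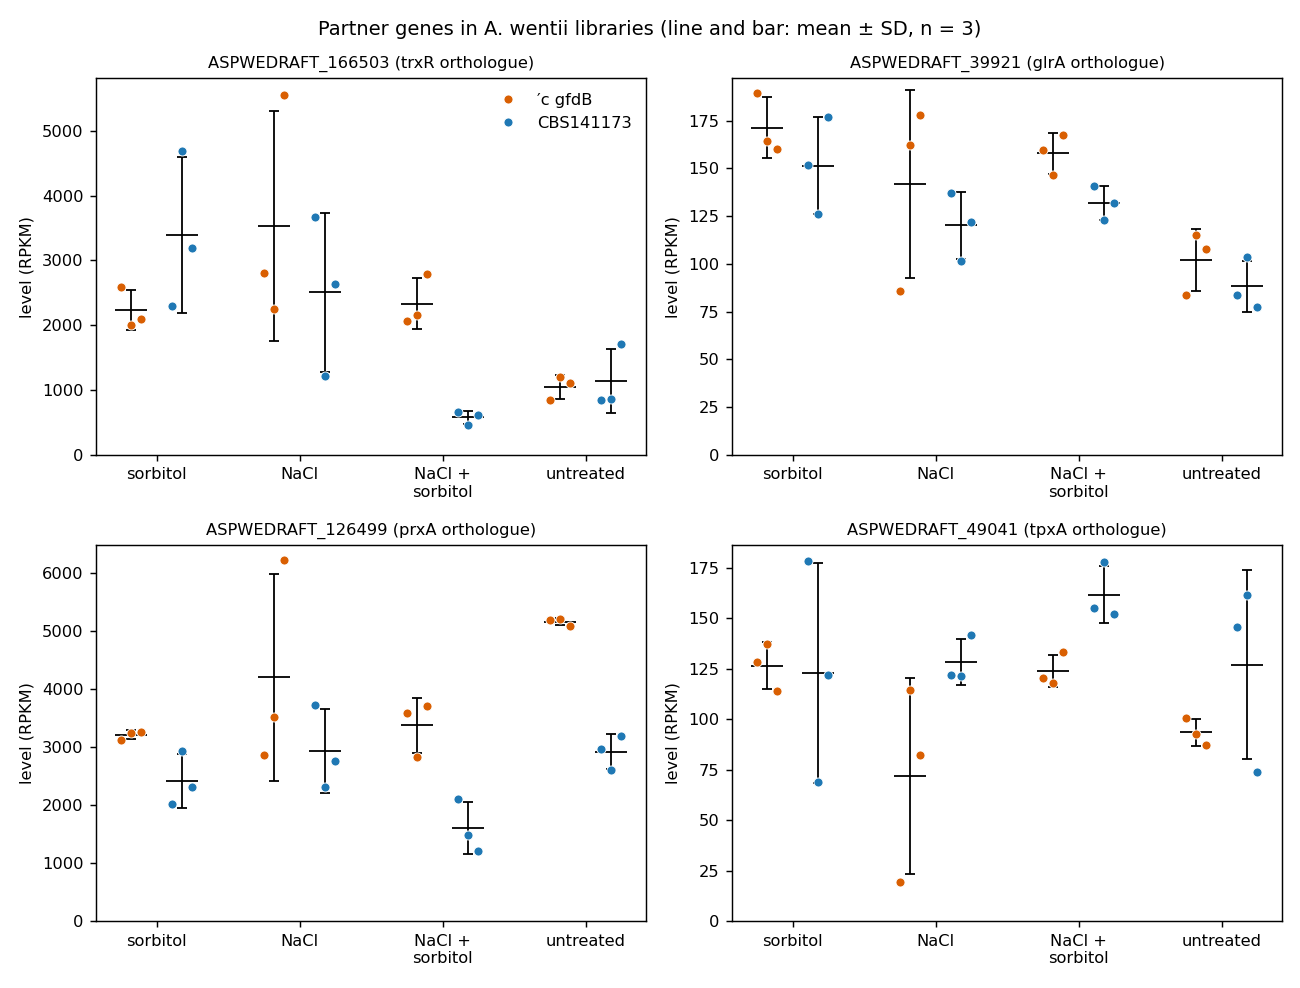
RPKM per library (points) with mean ± SD (n = 3) of the A. wentii orthologues of trxR, prxA, tpxA and glrA, ′c gfdB left of CBS141173. The trxR orthologue lies at 2063 RPKM or more in all stressed ′c gfdB libraries bar one at 2007, and at 464.5 to 661.9 RPKM in CBS141173 with both solutes.

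The thioredoxin gene and the peroxiredoxin gene with the highest mean RPKM over all libraries also stood higher in ′c gfdB under combined stress. ASPWEDRAFT_38834 had 1892, 1565 and 2363 RPKM there, against 994.9, 838.1 and 741.5 in CBS141173, a log2 difference of 1.33 ± 0.27 (edgeR adjusted p 0.00204). In CBS141173 it fell 2.83-fold under combined stress (adjusted p 0.000387). In ′c gfdB it fell by less than 2-fold, with log2 differences of -0.91 ± 0.26 with both solutes (0.0116) and -0.97 ± 0.26 with sorbitol (0.00716), the first lost without combined-stress replicate 2 (-0.76, adjusted p 0.0597). Its untreated strain difference of 0.74 ± 0.26 (0.047) did not pass whichever library was left out (0.71 to 0.82). The prxA orthologue ASPWEDRAFT_126499, a thioredoxin-dependent peroxidase by its annotation, had 3586, 2836 and 3709 RPKM in ′c gfdB with both solutes, against 2099, 1490 and 1219 in CBS141173. Its difference was 1.22 ± 0.30 (adjusted p 0.00915), and without CBS141173 replicate 3 it was 1.04 with an adjusted p of 0.0565. A second gene of the prxA group, ASPWEDRAFT_174151, rose with both solutes in ′c gfdB by 1.25 ± 0.18 (adjusted p 4.82e-05). In CBS141173 with both solutes ASPWEDRAFT_174151 had a difference of 0.99 (adjusted p 0.000416) and ASPWEDRAFT_126499 one of -0.84 (0.036), the second lost in 4 of 6 fits with 1 library left out.

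The glutathione reductase orthologue glrA (ASPWEDRAFT_39921), which keeps glutathione reduced, was not called in any comparison. It passed the adjusted test below 2-fold with sorbitol and with both solutes in ′c gfdB (0.75 and 0.76, edgeR adjusted p of 0.0216 and 0.0225) and with sorbitol in CBS141173 (0.63, 0.0438), and these were lost in 2, 3 and 4 of 6 fits with 1 library left out. Among weaker peroxiredoxin genes, ASPWEDRAFT_37280 rose in ′c gfdB with sorbitol (1.62 ± 0.46, adjusted p 0.0103) and with both solutes (1.88 ± 0.47, 0.0045), at group means of 9.02 ± 1.05 and 9.93 ± 0.80 RPKM against 2.94 ± 0.54 untreated. ASPWEDRAFT_36552 was lower in ′c gfdB than in CBS141173 in untreated cultures (-2.24 ± 0.35, adjusted p 0.000135) and with sorbitol (-1.55 ± 0.35, 0.00233), at 2.30 ± 0.65 and 2.54 ± 0.45 RPKM against 11.3 ± 4.36 and 8.57 ± 0.96. Its combined-stress call (-1.08, 0.0395) was lost in 5 of 6 fits with 1 library left out, and its NaCl call in CBS141173 (-1.07 ± 0.33, 0.0107) without untreated replicate 3 (-0.72) or NaCl replicate 2 (-0.97). ASPWEDRAFT_37448 was higher in ′c gfdB with sorbitol by 1.53 ± 0.52 (adjusted p 0.0271), a call lost in 4 of 6 such fits.

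The largest difference in the list belonged to ASPWEDRAFT_53567, a gene for a glutathione transferase, an enzyme that joins glutathione to other compounds. It had 10.13, 12.4 and 12.85 RPKM in untreated ′c gfdB, against 95.9, 72.6 and 120.5 in untreated CBS141173, a log2 difference of -2.99 ± 0.33 (edgeR adjusted p 3.95e-06). In CBS141173 it fell, with log2 differences of -1.93 ± 0.32 with sorbitol, -3.73 ± 0.34 with NaCl and -2.63 ± 0.33 with both (adjusted p of 8.83e-05, 5.63e-08 and 1.53e-05). It held 8.85 ± 2.30 RPKM in ′c gfdB with NaCl, against 7.47 ± 0.73 in CBS141173 with NaCl. With sorbitol it was lower in ′c gfdB (log2 difference -1.62 ± 0.32, 0.000962), and without CBS141173 sorbitol replicate 2 the value was -0.98. ASPWEDRAFT_22967 went the other way in CBS141173 with sorbitol (1.58 ± 0.35, 0.00124), where it was lower in ′c gfdB (-1.82 ± 0.35, 0.00082). Of the glutathione peroxidases listed under AN4905, ASPWEDRAFT_620702 and ASPWEDRAFT_139874 were lower in ′c gfdB with NaCl (-1.79 ± 0.49, 0.0142, and -1.04 ± 0.28, 0.0137). The first was lost without CBS141173 NaCl replicate 2 (-1.39) or ′c gfdB NaCl replicate 1 (-1.45), and the second without CBS141173 NaCl replicate 2 (-0.72) or ′c gfdB NaCl replicate 3 (-0.91). ASPWEDRAFT_620702 was called higher with NaCl in CBS141173 (1.23 ± 0.48, 0.0374), a call lost in 4 of 6 fits with 1 library left out.

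The A. nidulans orthologues were measured in libraries that the rule for choosing the genes did not use, so tests are given there. Earlier results of these data were known, however, when the genes were chosen. The 2 peroxiredoxin genes parted ways. The weaker one, tpxB (AN3973), had 106.98, 101.1 and 112.5 RPKM in ΔgfdB with NaCl, against 73.28, 40.16 and 39.004 in untreated ΔgfdB, and it rose by 1.46 ± 0.17 (edgeR adjusted p 7.2e-08). In THS30 it had 122, 147 and 132 RPKM with NaCl, against 70.0, 67.4 and 74.4 untreated, and it rose by 1.26 ± 0.17 (5.04e-07). With sorbitol it rose by 0.52 ± 0.17 in ΔgfdB (0.00849) and 0.63 ± 0.17 in THS30 (0.00184), below 2-fold, and the ΔgfdB value did not pass without untreated replicate 2 (0.39) or 3 (0.37), without scaling (0.28) or with only the groups compared (0.53).

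The more abundant tpxA (AN10223) went down instead. With sorbitol it had 721, 675 and 999.8 RPKM in ΔgfdB, against 1019, 1752 and 1577 untreated, and in THS30 663.9, 703.2 and 696.5 with sorbitol, against 1511, 1512 and 1553 untreated. It fell with sorbitol by 0.62 ± 0.17 in ΔgfdB (edgeR adjusted p 0.00243) and by 1.04 ± 0.17 in THS30 (1.22e-05), and with NaCl by 0.56 ± 0.17 in ΔgfdB (0.00474) and by 0.59 ± 0.17 in THS30 (0.00309). The ΔgfdB values did not pass without sorbitol replicate 2 (-0.41, adjusted p 0.0581) and without untreated replicate 2 (-0.38, 0.0501) for NaCl, and neither passed with only the groups compared (-0.61 and -0.54). With both solutes tpxA had log2 differences of -0.15 in ΔgfdB and -0.01 in THS30, which did not pass.

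The glutathione peroxidase gpxA (AN2846) rose with NaCl by 0.43 ± 0.11 in ΔgfdB (edgeR adjusted p 0.00128) and by 0.68 ± 0.11 in THS30 (9.72e-06), at 273 ± 15.3 and 277 ± 4.19 RPKM against 263 ± 17.7 and 219 ± 27.7 untreated. With both solutes it fell by 0.41 ± 0.11 in THS30 (0.00282), to 142 ± 17.5 RPKM, and in ΔgfdB the value was -0.11 ± 0.11 (0.404). With sorbitol it rose in ΔgfdB by 0.36 ± 0.11 (adjusted p 0.00636), a value of 0.12 that did not pass without scaling, and in THS30 the difference was 0.15 ± 0.11 (0.249). The thioredoxin trxA (AN0170) held 2422 to 3577 RPKM across the ΔgfdB libraries and 2582 to 3523 across the THS30 libraries, and no stress difference of it passed the test in the fit described, while 4 of the 6 did in 1 or more of the other settings with all libraries, at 0.28 to 0.34. RPKM ratios and fitted values differ in A. nidulans because the scaling moved all genes: without scaling, the NaCl values of tpxB, tpxA and gpxA were 1.07, -0.94 and 0.05 in ΔgfdB, the last no longer passing, and 0.92, -0.93 and 0.34 in THS30, and those of trxA changed sign, to -0.13 and -0.14.

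**Figure D5:**
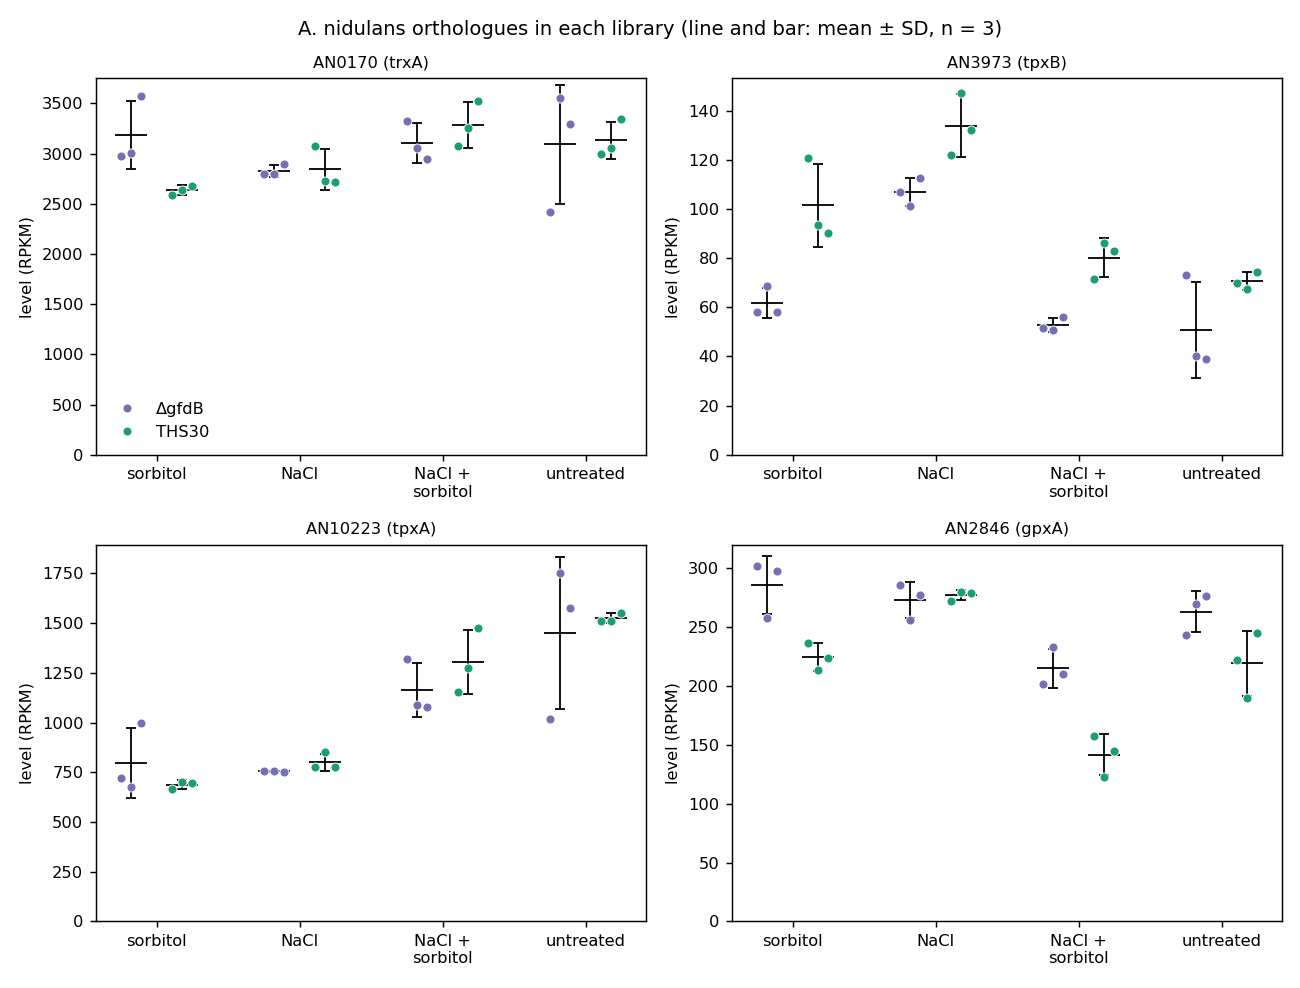
RPKM per library (points) with mean ± SD (n = 3) of trxA, tpxB, tpxA and gpxA in A. nidulans, ΔgfdB left of THS30. With NaCl tpxB lies at 101 to 147 RPKM in both strains against 39.004 to 74.4 untreated, and tpxA at 753 to 849 RPKM against 1019 to 1752 untreated.

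Between the A. nidulans strains no orthologue differed 2-fold. The deletion strain had more gpxA with sorbitol (0.53 ± 0.11, edgeR adjusted p 0.000987) and with both solutes (0.62 ± 0.11, 0.00106), less tpxB with sorbitol (-0.54 ± 0.17, 0.0143) and with both (-0.59 ± 0.17, 0.0234), and more trxA with sorbitol (0.46 ± 0.13, 0.00844). The tpxB values were lost in 3 and 4 of 6 fits with 1 library left out, and the trxA value without ΔgfdB sorbitol replicate 3 (0.34) and without scaling (0.28). For the difference of response between ΔgfdB and THS30, adjusted p-values of the 4 genes ran from 0.139 to 0.96. Between the strains 0 of 4 were called in untreated cultures (2.58% of all genes), with sorbitol (4.31%), with NaCl (2.26%) and with both (1.99%), while 2, 4, 0 and 2 had an unadjusted p under 0.05 and DESeq2 called 0. Against untreated cultures the call rule was met by 1 of 4 genes with NaCl in ΔgfdB (35.9% of all 9498 tested genes), 1 with sorbitol (26.6%) and 1 with NaCl (37.1%) in THS30. With sorbitol in ΔgfdB (29.4%) and with both solutes in ΔgfdB (13.8%) and THS30 (15.8%) the count was 0, at 4, 0 and 3 genes with an unadjusted p under 0.05 and 0 calls by DESeq2.

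For each of the 4 A. wentii genes, the 2 tested genes with the most similar profile over the 24 libraries were looked up by Pearson's r of log2 values, as a description only, since the libraries fall into 8 groups and share their scaling. ASPWEDRAFT_139887 was most like ASPWEDRAFT_101020 (r 0.929) and ASPWEDRAFT_120799 (0.927), and ASPWEDRAFT_101045 like ASPWEDRAFT_103316 (0.955) and ASPWEDRAFT_50482 (0.934). ASPWEDRAFT_167024 was most like ASPWEDRAFT_116076 (0.933) and ASPWEDRAFT_122164 (0.925), and ASPWEDRAFT_104530 like ASPWEDRAFT_51907 (0.923) and ASPWEDRAFT_43150 (0.86). None of these 8 genes belongs to the thioredoxin and glutathione list. Profiles with r over 0.8 numbered 134 for ASPWEDRAFT_139887, 236 for ASPWEDRAFT_101045, 194 for ASPWEDRAFT_167024 and 17 for ASPWEDRAFT_104530, so the glutathione peroxidase gene had the fewest look-alikes.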

How the data were processed

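RNA of mycelium from 48 cultures was sequenced by the authors from TruSeq libraries, aligned with HISAT2 2.1.0 to FungiDB release 65 genomes and counted per gene with featureCounts 2.0.0. The deposited table gives raw read counts, and the authors' RPKM values by edgeR 3.18, which recomputation from counts, gene lengths and library totals matched, so they carry no scaling beyond the library total. Counts were fitted here with edgeR 4.0.16 (quasi-likelihood, TMM, filterByExpr; R 4.3.3) in 1 fit of 8 groups per species, keeping 11094 A. wentii and 9498 A. nidulans genes, with Benjamini-Hochberg adjustment over all of them. The fit was tested on simulated data. Alternatives were median-of-ratios factors, no scaling, no filter, DESeq2 1.42.0, limma 3.58.1 on log2(RPKM + 1), only the groups compared, a replicate block and leaving out libraries. The members and lists were chosen with earlier results of these data known. Genes beyond the members were named by rule: their A. nidulans orthologues, the trxR, glrA, prxA and tpxA orthologues, and in each comparison at most the 2 largest called differences in each direction. The series text and the sample protocols swap the doses of the 2 solutes, and the protocols were followed. For 11 of the 12 ΔgfdB libraries the genotype label names another gene than the title, and titles were followed. Depth per library was as given above, and its counting error is smallest for the abundant genes.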

Additional observations from a re-analysis of the deposited data

Results flagged for a closer look

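Several differences in response between the A. wentii strains (response in ′c gfdB minus that in CBS141173, edgeR, log2) met the call rule. For the thioredoxin gene ASPWEDRAFT_139887 with sorbitol the value was -2.03 ± 0.53 (SE), given as a description with no test, because the gene was chosen on these groups. That value ran from -2.276 to -1.376 over 12 fits with 1 library left out, and it failed the rule in 3 of them. Among the other list genes, 4 values passed the adjusted test past 2-fold. With NaCl 8.33% of these genes were called, below the 10.4% of all genes. With both solutes 8.33% were called, against 2.53% of all genes. The glutathione transferase gene ASPWEDRAFT_53567 had 3.28 ± 0.45 with NaCl (adjusted p 0.000256) and 2.57 ± 0.45 with both solutes (0.00393), and both passed in all 12 fits with 1 library left out. Its untreated mean was already 11.8 RPKM in ′c gfdB, against 96.3 in CBS141173. In ′c gfdB its own stress differences were -0.46 with NaCl and -0.06 with both solutes (adjusted p 0.247 and 0.898). The peroxiredoxin gene ASPWEDRAFT_36552 had 1.90 ± 0.48 with NaCl (0.0154), and 1.54 with an adjusted p of 0.0592 without untreated CBS141173 replicate 3. It too started lower in untreated ′c gfdB, at 2.30 RPKM (26 to 47 reads), against 11.3 in untreated CBS141173. The trxR orthologue ASPWEDRAFT_166503 had 2.24 ± 0.56 with both solutes (0.0357), and the call was lost in 10 of 12 such fits, over which the value ran from 1.83 to 2.42. With sorbitol, 0 of the 24 other list genes were called, against 8.82% of all genes, while 3 had an unadjusted p under 0.05 and DESeq2 called 1.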

How the results depend on the processing

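Of the values of the 4 genes under other settings, 771 stayed within 1 SD between replicates and 29 moved further, none of them past a change of sign in a called value. ASPWEDRAFT_101045 has small spreads between replicates, so small moves passed 1 SD: with sorbitol in CBS141173 to 0.058 without scaling and 0.057 without the 2 least alike libraries (an alternative chosen after seeing the data), and with both solutes in CBS141173 to 0.39 without the filter. With NaCl in CBS141173 it was -0.541 with median-of-ratios factors, -0.584 without scaling, -0.578 without the filter, -0.544 by DESeq2, -0.579 by limma, -0.566 without the 2 libraries and -0.538 with only the groups compared. Without scaling and by limma it was -0.055 and -0.055 with both solutes in ′c gfdB, 0.302 and 0.312 between strains with sorbitol, and -0.121 and -0.12 between strains with both. The same 2 settings gave 0.622 and 0.616 for ASPWEDRAFT_167024 between strains with both solutes, and -0.135 and -0.134 for ASPWEDRAFT_104530 between strains with sorbitol. Larger moves of ASPWEDRAFT_167024 stayed within its wide spread, such as 0.369 without the 2 libraries, against -0.136 with them, with sorbitol in CBS141173. ASPWEDRAFT_139887 between strains with sorbitol ran from -2.515 to -1.615 when 1 library was left out. The cause of these moves was not tested.

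The number of other list genes called with both solutes in CBS141173 (2) was 4 by DESeq2, 6 with only the groups compared and 6 without the 2 libraries. With NaCl in ′c gfdB (1) it was 5 without the filter, 2 by DESeq2, 2 by limma and 4 without the 2 libraries, and with both solutes in ′c gfdB (3) it was 5 without scaling and 5 by limma. Between strains with NaCl (2) it was 1 by limma and 0 with only the groups compared. Leaving out 1 library gave 4 to 6 calls with sorbitol, 2 to 4 with NaCl and 2 to 4 with both in CBS141173, 1 to 2 with sorbitol and 1 to 4 with NaCl in ′c gfdB, and between strains 2 to 6 with sorbitol, 1 to 2 with NaCl and 2 to 4 with both. Calls over all genes moved too. Without the 2 libraries they went from 2073 to 2403 with both solutes in CBS141173 and from 3076 to 3380 with NaCl in ′c gfdB. For the other settings they are not given here, so no move is read as particular to the list.

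Without scaling, the median of all genes shifted by 0.147 with sorbitol in CBS141173, -0.119 with both solutes in ′c gfdB, and -0.193 with sorbitol and -0.148 with both between the strains. The share of calls that were higher then went to 75.0, 43.3, 22.3 and 23.1%, against 64.9, 54.5, 34.1 and 34.3% with scaling. In A. nidulans the shifts under stress were -0.109 to -0.384. The share of higher calls there was 33.3% (51.3% with scaling) with NaCl and 26.5% (47.8%) with both in THS30, 35.2% (52.1%), 30.6% (51.1%) and 23.3% (41.3%) with sorbitol, NaCl and both in ΔgfdB, and 29.6% (57.2%) and 41.6% (53.0%) between strains with sorbitol and NaCl.

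Replicate numbers did not pair the libraries: deviations of same-numbered A. wentii libraries correlated with a median r of 0.008 (-0.621 to 0.421), and A. nidulans ones with 0.017 (-0.386 to 0.388). With a replicate block, ASPWEDRAFT_139887 differed by 2.83 with sorbitol, 1.82 with NaCl and 2.03 with both in CBS141173, and ASPWEDRAFT_167024 by 1.70 between untreated strains. Counting error limits ASPWEDRAFT_139887 most, at 48 reads in its lowest library.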
